A study of Mus musculus with 12 samples.

Results

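The 10 genes described here code for transcription factors of blood stem and progenitor cells: Gata2, Lmo2, Sox4, Tal1, Runx1, Erg, Fli1, Lyl1, Myb and Mycn. Each was read from the probe set annotated to that symbol alone. There was 1 such probe set per gene, so the choice of the brightest left nothing out, and the 10 stand among 19938 genes measured by a probe set of a single symbol. All values are log2 intensities, so a difference of 1 is a 2-fold difference. Levels of different genes are not compared, since probe sets differ in how brightly they bind.

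The cells were adult mouse marrow of the strain labelled C57/BL6/C3H, taken after the animals had received 5-fluorouracil, which enriches stem and progenitor cells. Per the labels they were stimulated for 48 h, transduced on irradiated GFP+E86 virus producers with cytokines, and sorted for GFP, with RNA taken 96 h after transduction. For all 12 arrays the labels also give producer irradiation of 40 Gy, protamine at 5 µg/ml and 48 h of culture after removal. The 4 groups of 3 biological replicates differ in the retroviral construct: the empty vector MIG, the leukaemia fusion CALM-AF10, the fusion without its OM-LZ part (CALM-AF10 ΔOM-LZ), and CALM(400-648)+AF10 (677-758), called here the minimal fusion. Controls and fusions therefore shared the drug, the cytokines, the protamine, the producers, the culture times and the sort. Each group was a mixed population at an early time and no leukaemia. The sources used here do not say whether replicates came from separate animals, so p-values measure the spread between these samples.

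As background, Tal1 and Lyl1 are closely related basic helix-loop-helix proteins that bind E-box DNA with partners of the Tcf3 family. Lmo2 binds no DNA itself and bridges such pairs to GATA factors such as Gata2. With Runx1 and the ETS factors Erg and Fli1, these proteins occupy many of the same regulatory regions in blood progenitors, including those of each other's genes. Sox4, Myb and Mycn act in progenitor growth, and several of the 10, Gata2 and Tal1 above all, are also used by mast cells, megakaryocytes or erythroid cells.

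Promoter windows of the genes on which the results turn are shown first, because the proteins in question act through such DNA. RefSeq windows on GRCm38.p6, from 250 bases before to 50 after the start, were on hand for 8 of the 10 genes, 13 windows in all. Lmo2 and Fli1 had no entry. Capitals mark the E-box letters CAGNTG in the first and second sequence and, in the third, the GATA letters AGATAA or TGATAA as well, each searched on both strands. The Sox4 window is at chr13:28953650-28953949 on the minus strand, the Gata2 window, the more 3′ of that gene's pair, at chr6:88198414-88198713 on the plus strand, and the Tal1 window, the more 5′ of its pair, at chr4:115056176-115056475 on the plus strand.
Sox4: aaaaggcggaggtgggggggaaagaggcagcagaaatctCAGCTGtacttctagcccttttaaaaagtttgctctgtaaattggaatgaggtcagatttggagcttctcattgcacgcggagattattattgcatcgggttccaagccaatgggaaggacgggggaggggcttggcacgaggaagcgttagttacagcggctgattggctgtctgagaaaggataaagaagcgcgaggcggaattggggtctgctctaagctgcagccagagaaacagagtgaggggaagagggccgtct
Gata2: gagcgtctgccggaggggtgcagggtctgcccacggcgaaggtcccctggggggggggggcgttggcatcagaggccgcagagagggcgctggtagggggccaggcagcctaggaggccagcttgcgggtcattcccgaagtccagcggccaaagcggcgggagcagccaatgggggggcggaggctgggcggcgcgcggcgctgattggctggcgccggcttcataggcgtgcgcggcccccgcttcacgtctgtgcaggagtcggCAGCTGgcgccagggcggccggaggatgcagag
Tal1: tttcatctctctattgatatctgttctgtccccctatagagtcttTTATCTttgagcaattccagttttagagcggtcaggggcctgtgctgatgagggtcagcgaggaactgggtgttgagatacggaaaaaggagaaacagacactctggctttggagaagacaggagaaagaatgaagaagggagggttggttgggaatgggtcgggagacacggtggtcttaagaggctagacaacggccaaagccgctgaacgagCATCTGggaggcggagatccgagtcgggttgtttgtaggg

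The CAGNTG letters were in 8 of the 13 windows, and in 51.4% of the 32817 promoter windows of the table. GATA letters were in 2 of the 13, against 18.6% of the table, and those 2 windows belong to Tal1 and Erg. The Gata2 and Tal1 windows not shown hold neither the CAGNTG nor the GATA letters. ETS letters (CGGAAG or AGGAAG) were in 4 of the 13, against 46.5%, and the RUNX letters TGTGGT were in 1, a Runx1 window that holds them at 2 positions, against 16.8%. None of these motifs contains another. These are matches of letters and describe the sequence only.

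By limma, with a linear model of 1 mean per construct over the 12 arrays and Benjamini-Hochberg adjustment over 23410 named probe sets, 0 of the 10 factors passed an adjusted p of 0.05 in any comparison, where 0% to 0.0342% of probe sets did. The moderated F test over the 4 constructs also gave 0, as did trend and robust variance. The largest separations were those of Sox4 and Lmo2. Sox4, a high mobility group factor of immature lymphoid and myeloid cells, stood 1.46-fold to 1.52-fold higher in arrays of CALM-AF10 and of the minimal fusion than in arrays of MIG and of ΔOM-LZ. Lmo2 stood 1.31-fold to 1.63-fold higher in the minimal fusion than in each of the other constructs. Neither difference passed.

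Before the values, 3 arrays need naming, since several of the factors moved with them. Over the 12 measured of 14 mast cell and basophil genes (the mean of each gene's log2 value minus its own mean over the arrays), MIG replicate 3 scored 1.96, ΔOM-LZ replicate 1 scored 1.40 and CALM-AF10 replicate 1 scored 1.07. The other 9 arrays lay between −1.25 and 0.06, and minimal fusion arrays held 2 of the lowest scores, −1.25 and −0.90. In these bulk samples more cells of a type and more RNA per cell cannot be told apart. The same arrays were each the lowest of their construct over 5 neutrophil primary granule genes (−0.42, −1.48 and −1.09 in the order above) and over 12 late neutrophil genes (−0.56, 0.14 and −0.53). Values without these 3 arrays, a choice made after the data were seen, are given below for the differences they bear on most. Array medians ran from 6.58 to 6.69 over all probe sets.

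**Figure D1:**
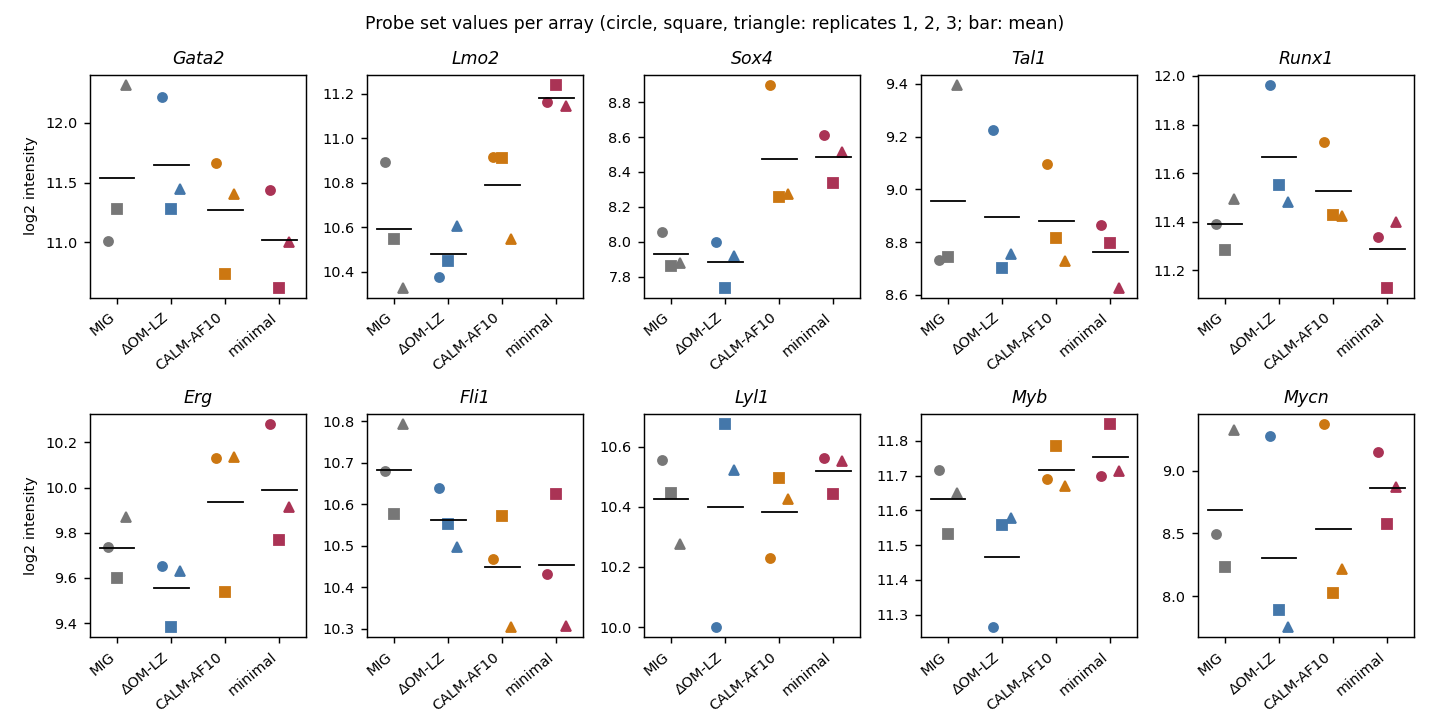
Log2 intensity (vertical axes, each with its own range) of the 10 factors in the 12 arrays by construct; circles, squares and triangles are replicates 1, 2 and 3 and the bar is the mean of 3. Sox4 lies at 8.26 or above in every CALM-AF10 and minimal fusion array and at 8.06 or below in the others, while Gata2, Tal1 and Mycn are high in 1 array each of MIG, ΔOM-LZ and CALM-AF10.

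Sox4 was measured at 8.06, 7.86 and 7.88 in MIG replicates 1 to 3, and at 8.002, 7.74 and 7.92 in ΔOM-LZ. In CALM-AF10 it was 8.90, 8.26 and 8.27, and in the minimal fusion 8.61, 8.34 and 8.51. The 6 arrays of CALM-AF10 and the minimal fusion thus lay above all 6 arrays of MIG and ΔOM-LZ. The mean of the former pair of groups exceeded that of the latter by 0.57 (SE 0.12, 95% interval 0.31 to 0.83, unadjusted p = 0.000499, limma adjusted p = 0.284). Of all probe sets, 0.389% had such non-overlapping groups of 6 with the former higher and 0.137% with the former lower.

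Taken by construct, Sox4 exceeded MIG by 0.55 in the minimal fusion (SE 0.17, limma adjusted p = 0.475) and by 0.54 in CALM-AF10 (SE 0.17, adjusted p = 0.738). Against ΔOM-LZ the differences were 0.60 for the minimal fusion (adjusted p = 0.726) and 0.59 for CALM-AF10 (adjusted p = 1). The groups did not overlap in any of these 4 pairs. The 2 fusions themselves differed by 0.01 (95% interval −0.35 to 0.38), and ΔOM-LZ and MIG by −0.05 (−0.41 to 0.32), with overlapping arrays. CALM-AF10 replicate 1, at 8.90, was the highest array, and without it the CALM-AF10 differences were 0.33 against MIG and 0.38 against ΔOM-LZ. Over the 9 arrays outside the 3 named above, the pooled difference was 0.48 (SE 0.10, limma adjusted p = 0.718). The CALM-AF10 excess over MIG was then 0.31, with an adjusted p of 1.

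Lmo2, the bridging LIM protein, read 10.89, 10.55 and 10.33 in MIG, 10.38, 10.45 and 10.61 in ΔOM-LZ, and 10.91, 10.91 and 10.55 in CALM-AF10. In the minimal fusion it read 11.16, 11.24 and 11.15, a range of 0.10, and these 3 arrays were the highest of the 12. No array of another construct reached them. The minimal fusion exceeded ΔOM-LZ by 0.71 (SE 0.15, 95% interval 0.38 to 1.03, limma adjusted p = 0.4), MIG by 0.59 (0.26 to 0.92, adjusted p = 0.394) and CALM-AF10 by 0.39 (0.06 to 0.72, adjusted p = 1).

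CALM-AF10 and MIG overlapped in Lmo2 (difference 0.20, 95% interval −0.13 to 0.53, and 0.01 without the 3 named arrays), as did ΔOM-LZ and MIG (−0.11, −0.44 to 0.22). The construct accounted for 75.3% of the variance of Lmo2 over the 12 arrays and for 72.9% of that of Sox4. The median over the 10 factors was 45.7%, and over all genes 22.2%. These sets are unlike in level, since all 10 factors lay above 7.02, the median of named probe sets, and all genes include dim ones. Without the 3 named arrays the excess of Lmo2 in the minimal fusion was 0.46 over MIG and 0.66 over ΔOM-LZ (limma adjusted p = 0.816 and 0.674).

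Lists of other cell types moved between the same constructs. Of 12 measured mast cell and basophil genes, 11 stood below 0 and 1 above in the minimal fusion against MIG (median −1.51). Against ΔOM-LZ all 12 stood below 0 (median −1.14). MIG replicate 3 and ΔOM-LZ replicate 1 weigh in these medians. Of 12 measured megakaryocyte genes, 11 stood below 0 and 1 above, both against MIG (median −0.81) and against ΔOM-LZ (median −0.44). By limma 0 genes of either list passed there. The score over 12 late neutrophil genes was −0.79 to −0.27 in minimal fusion arrays and −0.53 to 0.18 in CALM-AF10. It was −0.56 to 0.57 in MIG and 0.14 to 0.79 in ΔOM-LZ. The median was lowest in the minimal fusion, whose arrays all lay below those of ΔOM-LZ, while the other pairs of constructs overlapped. All 12 genes stood below 0 in the minimal fusion against ΔOM-LZ (median −1.02). They also did in CALM-AF10 and the minimal fusion against MIG and ΔOM-LZ (median −0.57). Over the 9 measured of 11 surface genes of stem and progenitor cells the score was 0.19 to 0.37, −0.16 to 0.31, −0.20 to 0.12 and −0.66 to −0.01 in the same order of constructs. Over 11 monocyte and macrophage genes it was −0.51 to −0.29, −0.42 to 0.07, −0.67 to 1.08 and 0.05 to 1.01, and in the comparison of CALM-AF10 and the minimal fusion with MIG and ΔOM-LZ all 11 stood below 0. Of 19 measured cell cycle genes, all 19 stood above 0 in the minimal fusion against ΔOM-LZ (median 0.30) and against CALM-AF10 (median 0.36), and 13 did against MIG. By limma 0 genes of the neutrophil, monocyte and cell cycle lists passed in these comparisons. Of the 9 surface genes, 6 stood above 0 and 3 below in the minimal fusion against MIG. Cd27, a receptor gene of early progenitors, was the one that passed there (1.93 higher, limma adjusted p = 0.0359). The part of cell makeup in the Sox4 and Lmo2 differences was not tested.

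**Figure D2:**
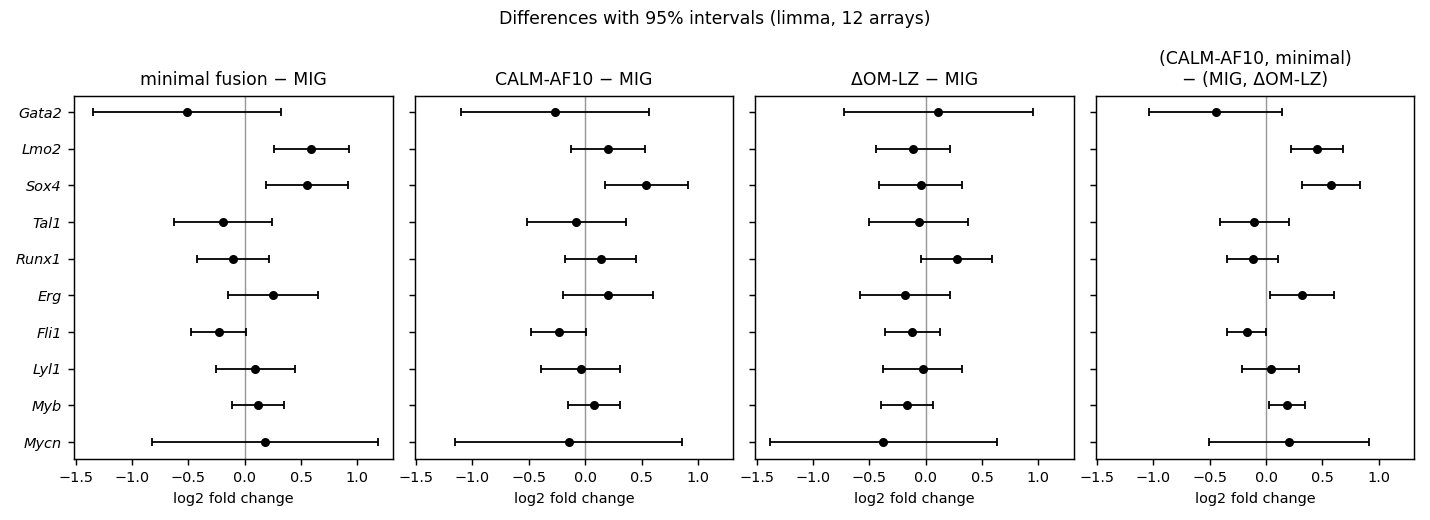
Differences between constructs (horizontal axis, log2 fold change, first named minus second) for the 10 factors, with 95% intervals from the limma fit over 12 arrays. The intervals of Sox4 exclude 0 in all panels but ΔOM-LZ against MIG, and those of Lmo2 in the minimal fusion against MIG and in the pooled comparison; no adjusted p passed 0.05.

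Gata2, a zinc finger factor that stem cells need and that mast cells keep, was the factor with the widest range. It read 11.01, 11.28 and 12.32 in MIG, 12.21, 11.28 and 11.45 in ΔOM-LZ, 11.67, 10.73 and 11.41 in CALM-AF10, and 11.44, 10.62 and 11.01 in the minimal fusion. The highest array was 3.24-fold above the lowest, and all constructs overlapped. The minimal fusion differed from MIG by −0.51 (SE 0.38, 95% interval −1.35 to 0.32, limma adjusted p = 0.803), and by −0.12 without MIG replicate 3. The SD over MIG arrays was 0.69, larger than this difference.

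Tal1 followed the same arrays. Its values were 8.73, 8.74 and 9.40 in MIG, 9.23, 8.70 and 8.76 in ΔOM-LZ, 9.09, 8.82 and 8.73 in CALM-AF10, and 8.86, 8.80 and 8.63 in the minimal fusion. The 3 values above 9 were those of the 3 named arrays. No construct stood apart: differences from MIG were −0.19, −0.08 and −0.06 for the minimal fusion, CALM-AF10 and ΔOM-LZ, with limma adjusted p of 0.859 to 1. Without the 3 arrays they were 0.02, 0.03 and −0.01.

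Lyl1, the close relative of Tal1, was lowest in those arrays. It read 10.56, 10.44 and 10.27 in MIG, 10.0005, 10.67 and 10.52 in ΔOM-LZ, 10.23, 10.50 and 10.43 in CALM-AF10, and 10.56, 10.44 and 10.55 in the minimal fusion. In each of the 3 constructs with a named array, that array held the construct's lowest Lyl1 value. Differences between constructs were at most 0.14 in size, each with a limma adjusted p of 0.924 or above. Without the 3 arrays the minimal fusion differed from ΔOM-LZ by −0.08 in place of 0.12, and from MIG by 0.02 in place of 0.09.

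Runx1, the core binding factor subunit that starts definitive blood formation, was highest under ΔOM-LZ. It read 11.96, 11.55 and 11.48 there, 11.39, 11.28 and 11.49 in MIG, 11.73, 11.43 and 11.42 in CALM-AF10, and 11.34, 11.13 and 11.40 in the minimal fusion. The minimal fusion arrays lay below all arrays of ΔOM-LZ and below all of CALM-AF10. Against ΔOM-LZ the difference was −0.38 (SE 0.14, 95% interval −0.69 to −0.06, limma adjusted p = 0.999), and −0.23 without the 3 named arrays. Against CALM-AF10 it was −0.24 (adjusted p = 1), and −0.14 without CALM-AF10 replicate 1.

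The ETS factors Erg and Fli1 differed in order: CALM-AF10 and the minimal fusion held the highest means of Erg and the lowest of Fli1. Erg, a stem cell factor, read 9.74, 9.60 and 9.87 in MIG and 9.65, 9.38 and 9.63 in ΔOM-LZ. It read 10.13, 9.54 and 10.14 in CALM-AF10 and 10.28, 9.77 and 9.92 in the minimal fusion, and replicate 2 was the lowest array of every construct. The mean of the latter pair exceeded that of the former by 0.32 (SE 0.13, limma adjusted p = 0.637), with overlap. Minimal fusion arrays all lay above ΔOM-LZ arrays (difference 0.43, 95% interval 0.03 to 0.83, adjusted p = 0.999). That difference was 0.29 without minimal fusion replicate 1 and 0.48 without the 3 named arrays.

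Fli1, which megakaryocytes also need, was highest in MIG. It read 10.68, 10.58 and 10.79 in MIG, 10.64, 10.55 and 10.50 in ΔOM-LZ, 10.47, 10.57 and 10.30 in CALM-AF10, and 10.43, 10.62 and 10.31 in the minimal fusion. CALM-AF10 arrays all lay below MIG arrays, by a margin of less than 0.01 between 10.572 and 10.5762. The differences from MIG were −0.24 for CALM-AF10 and −0.23 for the minimal fusion (SE 0.11 each, limma adjusted p = 0.981 and 0.684), and neither 95% interval excluded 0. Without the 3 named arrays they were −0.19 and −0.17. The range over all arrays was 1.40-fold.

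Myb, a factor that keeps progenitors cycling and immature, varied little. It read 11.72, 11.53 and 11.65 in MIG, 11.26, 11.56 and 11.58 in ΔOM-LZ, 11.69, 11.78 and 11.67 in CALM-AF10, and 11.70, 11.85 and 11.71 in the minimal fusion. All arrays of CALM-AF10 and of the minimal fusion lay above all ΔOM-LZ arrays, by means of 0.25 and 0.29 (SE 0.10 each, limma adjusted p = 1 and 0.999). ΔOM-LZ replicate 1 was the lowest array, and without it these differences were 0.15 and 0.19. Both overlapped with MIG, from which they differed by 0.08 and 0.12.

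Mycn, a growth-driving relative of Myc, had the largest spread within constructs (SD 0.64). It read 8.49, 8.23 and 9.32 in MIG, 9.28, 7.89 and 7.75 in ΔOM-LZ, 9.37, 8.02 and 8.21 in CALM-AF10, and 9.15, 8.57 and 8.87 in the minimal fusion. All constructs overlapped, and the minimal fusion stood 0.18 above MIG (95% interval −0.83 to 1.19, limma adjusted p = 0.951). Once the 3 named arrays were left out, the minimal fusion arrays were the highest 3 of the 9. The difference was then 0.50 against MIG, 0.74 against CALM-AF10 and 1.04 against ΔOM-LZ (limma adjusted p = 0.865, 1 and 0.384). This subset was chosen after the values were known. It drops the array of highest Mycn from MIG, ΔOM-LZ and CALM-AF10 and none from the minimal fusion. The choice thus raises these differences by itself, and the p-values cannot test them.

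Against the background of each comparison the counts read as follows. In the minimal fusion against MIG, 0 factors were called where 0.0342% of probe sets were. At an unadjusted p under 0.05 there were 2, Lmo2 and Sox4, against 7.61% of probe sets, and the same 2 had non-overlapping groups with the fusion higher, against 6.08%, while 0 did with it lower, against 6%. The median difference over the 10 factors was 0.11, beside 0.01 over all genes, with 6 above 0 and 4 below.

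Against ΔOM-LZ, the minimal fusion had 0 of 10 called (0.0171% of probe sets) and 5 with an unadjusted p under 0.05 (4.1% of probe sets). These were Lmo2, Sox4, Erg and Myb on the higher side and Runx1 on the lower, and the same 5 had non-overlapping groups (3.7% of probe sets higher and 4.09% lower). The size of the difference, regardless of sign, had a median of 0.41 over the 10 factors and 0.09 over all genes. All genes include dim ones and the factors do not. The median SD over the arrays was also larger for the factors, 0.25 against 0.18 for all genes. In the direct comparison of the minimal fusion with CALM-AF10, 0 were called (0.00427%). Lmo2 alone had an unadjusted p under 0.05 (1.8% of probe sets), and Lmo2 on the higher and Runx1 on the lower side did not overlap (2.06% and 3.32%).

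CALM-AF10 against MIG also gave 0 calls (0% of probe sets). Sox4 alone had an unadjusted p under 0.05 (5.26%), and non-overlap was seen for Sox4 on the higher and Fli1 on the lower side (6.04% and 3.26%). Against ΔOM-LZ, CALM-AF10 gave 0 calls (0%), with Sox4 and Myb at an unadjusted p under 0.05 (2.26%) and non-overlapping on the higher side (4.66%), and 0 on the lower (2.09%). ΔOM-LZ against MIG gave 0 calls (0%), 0 factors at an unadjusted p under 0.05 (3.96%) and 0 non-overlapping (3.57% higher and 4.47% lower). For CALM-AF10 and the minimal fusion against MIG and ΔOM-LZ, 0 were called (0.0128%) and Sox4, Lmo2, Erg and Myb, all higher, had an unadjusted p under 0.05 (6.95%). These comparisons share arrays with each other and do not count as separate evidence.

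The moderated F test gave its smallest unadjusted p among the factors to Lmo2 (0.00326) and Sox4 (0.00429), both with a limma adjusted p of 0.812, where 0.00854% of probe sets passed. At an unadjusted p under 0.05 these were 2 of the 10, against 4.3% of probe sets. The next was Myb, at an unadjusted p of 0.0795.

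The 3 arrays of high mast cell score were then set against the other 2 arrays of their own construct. Gata2 was higher in MIG replicate 3 by 1.18, in ΔOM-LZ replicate 1 by 0.85 and in CALM-AF10 replicate 1 by 0.60. Mycn was higher by 0.96, 1.46 and 1.25 and Tal1 by 0.66, 0.50 and 0.32, in the same order. Gata2, Mycn, Tal1 and Runx1 were thus each the highest of their construct in all 3 arrays, and Lyl1 the lowest in all 3. Sox4 differed by −0.08, 0.17 and 0.64 and Lmo2 by −0.39, −0.15 and 0.18, without a common direction. As the arrays were picked by their mast cell genes, these values carry no test, and the part of such cells in them was not tested.

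**Figure D3:**
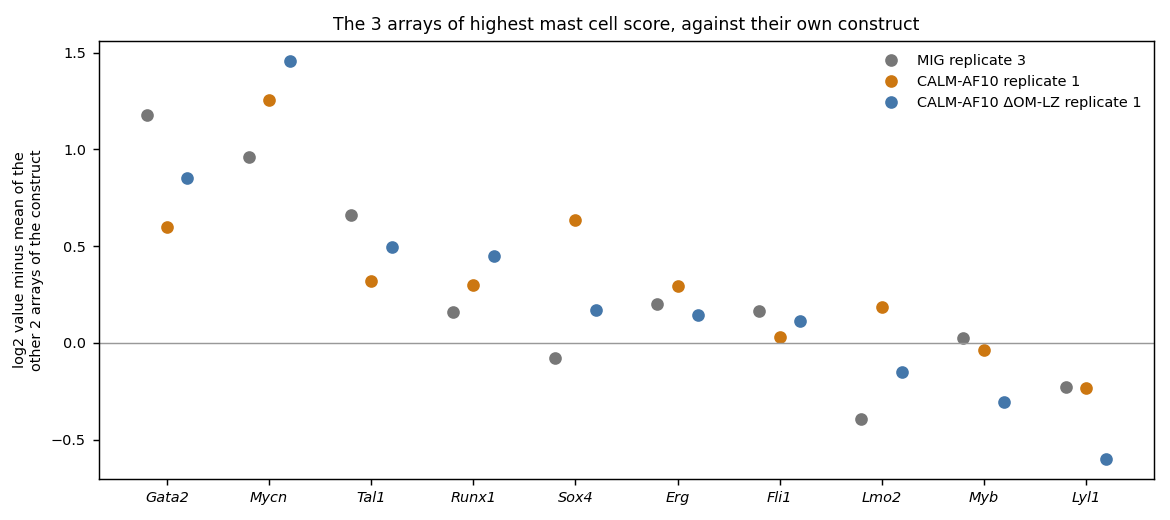
Log2 value of each of the 10 factors in MIG replicate 3, CALM-AF10 replicate 1 and ΔOM-LZ replicate 1, minus the mean of the other 2 arrays of the same construct (vertical axis). Gata2, Mycn, Tal1 and Runx1 lie above 0 in all 3 arrays and Lyl1 lies below 0 in all 3.

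Among the 9 remaining arrays, the mast cell score still ran with some factors. Myb was lower where the score was higher (Pearson r = −0.93, Spearman rho = −0.92), as were Lmo2 (r = −0.83, rho = −0.92) and Sox4 (r = −0.68, rho = −0.80). Gata2 was higher with a higher score (r = 0.78, rho = 0.63). For Tal1 the r was −0.08 and for Lyl1 0.23, so that the contrast of these genes between arrays rests on the 3 that were left out. These values describe the 9 arrays and carry no test, because constructs are unequal in the score. The minimal fusion arrays, at −1.25, −0.90 and −0.46, include the highest values of Lmo2 and Myb among the 9. Among these 9, score and construct cannot be told apart for Lmo2, Sox4 and Myb. As deviations from construct means over all 12 arrays, the r with this score was −0.50 for Lmo2 and −0.53 for Myb. For Sox4 it was 0.51, of opposite sign to its value among the 9. The 3 named arrays weigh in these values, which carry no test either. The mast cell list shares Cpa3, Ms4a2, Fcer1a and Hdc with the list of reported target genes described further on.

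**Figure D4:**
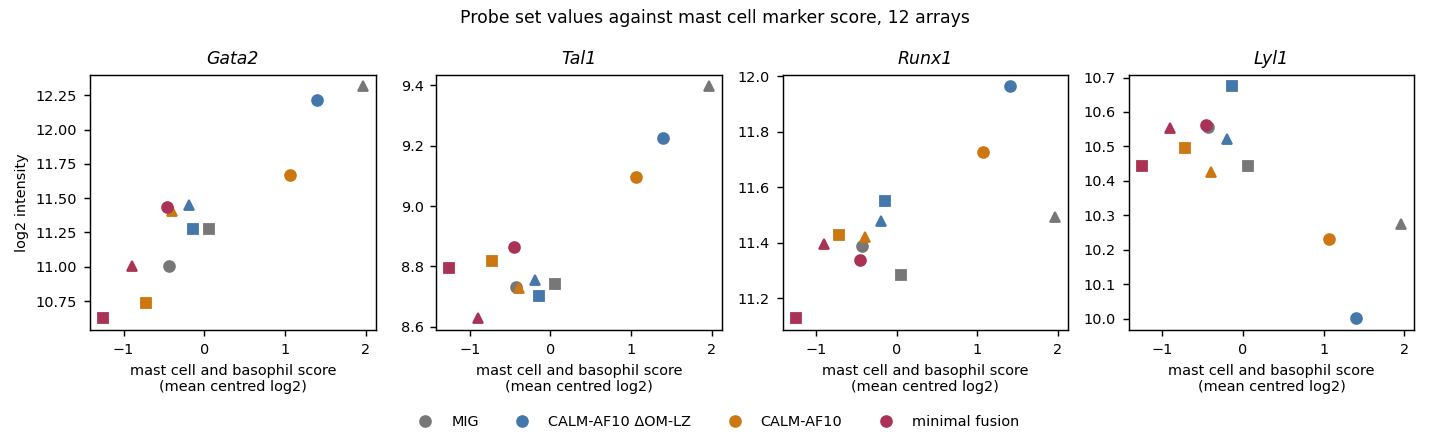
Log2 intensity of Gata2, Tal1, Runx1 and Lyl1 (vertical axes) against the mast cell and basophil score (horizontal axes) in the 12 arrays, coloured by construct, with circles, squares and triangles for replicates 1 to 3. The 3 arrays with scores of 1.07 to 1.96 stand apart from the other 9; Gata2 lies at 11.67 to 12.32 in those 3, while Tal1 has an r of −0.08 among the 9.

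Over all 12 arrays, 40 relations of the 10 factors with 4 marker scores were tested by permutation (100000 resamples, two-sided), and 12 had an adjusted p under 0.05 over the 40. Of these, 5 were with the mast cell score, for which no pooled r is given because its arrays fall into 2 clusters. The permutations treat arrays as exchangeable, although constructs differ in the scores and same-numbered CALM-AF10 and ΔOM-LZ arrays deviated together, so these p-values may be too small. With the megakaryocyte score, Myb had r = −0.70 (permutation p = 0.00757, adjusted 0.0336; rho = −0.78, adjusted 0.0273). It was −0.89 without MIG replicates 2 and 3, the arrays farthest from the median score, and −0.65 after quantile normalization (adjusted 0.0582). Lmo2 had r = −0.78 (permutation p = 0.0031, adjusted 0.0187; rho = −0.84), and −0.74 without those 2 arrays (adjusted 0.0614). Gata2 had r = 0.77 (permutation p = 0.00328, adjusted 0.0187; rho = 0.69, adjusted 0.0731), and 0.89 without them. Within constructs, as deviations from each construct's mean, the r was −0.80 for Myb, −0.69 for Lmo2 and 0.77 for Gata2. Runx1, with r = 0.46 (adjusted permutation p = 0.202), reached 0.91 without the 2 arrays (adjusted 0.0112). Minimal fusion arrays scored −0.66 to −0.24 on this list and MIG arrays −0.18 to 0.85.

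With the erythroid score, Mycn had r = 0.74 (permutation p = 0.00102, adjusted 0.0102; rho = 0.78, adjusted 0.0273), and 0.78 without the 2 arrays farthest from the median score (adjusted 0.0614). Gata2 (r = 0.79) and Tal1 (r = 0.82) dropped to 0.51 and 0.35 without those 2 arrays (adjusted permutation p = 0.306 and 0.502), so that their relation rests on MIG replicate 3 and ΔOM-LZ replicate 1. With the cell cycle score Gata2 alone passed (r = −0.71, permutation p = 0.00868, adjusted 0.0347), and this was lost by rank (rho = −0.69, adjusted 0.0731), after quantile normalization (adjusted 0.0582) and without the 2 farthest arrays (r = −0.61, adjusted 0.184). Sox4, Erg and Fli1 had no relation past the threshold with any of the 4 scores.

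Other cells of the culture were checked by their markers. The file holds no detection calls, so absence cannot be stated. Kit, the stem cell factor receptor of progenitors and mast cells, ran from 9.86 to 11.20. The progenitor surface gene Cd34 ran from 10.84 to 12.43. Endothelial cells also express Erg, Fli1, Tal1 and Lmo2. Of 10 endothelial genes, the vascular cadherin gene Cdh5 ran from 5.43 to 5.90 and the angiopoietin receptor gene Tek, which blood stem cells also express, from 5.80 to 8.67. Pecam1 ran from 9.95 to 10.71, Egfl7 from 8.13 to 9.09 and Tie1 from 7.84 to 8.82. Emcn, Kdr, Esam, Plvap and Robo4 lay between 4.53 and 6.51, so the list was mixed. In the minimal fusion against MIG, 5 of the 10 stood above 0 and 5 below (median 0.02), and 0 passed by limma.

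The protein partners of the factors were examined as a list of 20 genes, all measured. In the minimal fusion against MIG, 0 passed by limma in either direction, 10 stood above 0 and 10 below, and the median was −0.02 beside 0.01 over all genes. Tcf3, the E protein that pairs with Tal1 and Lyl1, exceeded MIG by 0.39 in the minimal fusion (SE 0.13, limma adjusted p = 0.538) and by 0.43 in CALM-AF10 (adjusted p = 0.738), without overlap with MIG in either case. Cbfb, the partner of Runx1, differed by 0.20 (adjusted p = 0.672), its minimal fusion arrays (10.24, 10.45 and 10.19) lying just above those of MIG (10.18, 10.08 and 10.01). The demethylase gene Kdm1a differed by −0.21 (adjusted p = 0.731) and the corepressor gene Runx1t1 by −0.49 (adjusted p = 0.734), the latter with MIG replicate 3 at 6.74 and every other array at 5.82 or below.

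Of 17 relatives of the factors, 16 were measured and 0 passed by limma in that comparison, with 9 above 0, 7 below and a median of 0.04. Etv6, an ETS family repressor that stem cells need, exceeded MIG by 0.24 in the minimal fusion (SE 0.10, limma adjusted p = 0.598) and by 0.23 in CALM-AF10 (adjusted p = 0.921). Its 6 arrays of CALM-AF10 and the minimal fusion lay above all 6 of MIG and ΔOM-LZ (difference 0.20, adjusted p = 0.572). The margin was much narrower than for Sox4, between 11.196 in CALM-AF10 replicate 2 and 11.1912 in ΔOM-LZ replicate 3. In the minimal fusion against MIG, Runx3 differed by 0.26 (adjusted p = 0.69) and Mybl1 by −0.21 (adjusted p = 0.822). Gata1, the GATA factor of erythroid, megakaryocyte and mast cells, differed by −0.74 (adjusted p = 0.76), its highest arrays being ΔOM-LZ replicate 1 (9.36) and MIG replicate 3 (9.19).

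Of 18 other stem and progenitor factors 17 were measured, and 1 passed by limma in the minimal fusion against MIG, 0 lower. This was Hoxa9, a homeobox factor gene of stem cells and leukaemia, 1.39 higher (SE 0.11, limma adjusted p = 0.00132), and it is the one gene of these 4 related lists that passed in any of the 7 comparisons between constructs. The list median was 0.06, with 12 above 0 and 5 below. Mecom, a zinc finger factor gene of stem cells, stood 1.47 higher (SE 0.38, adjusted p = 0.405), while Ikzf2 and Cebpa differed by −0.44 and −0.15 (adjusted p = 0.834 and 0.808). Set side by side, Hoxa9 was 2.61-fold, Lmo2 1.51-fold and Sox4 1.47-fold higher in the minimal fusion when set against MIG. In CALM-AF10 against MIG these were 1.24-fold, 1.15-fold and 1.46-fold.

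Of 24 genes reported as direct targets of these factors 22 were measured and 0 passed by limma, with 7 above 0 and 15 below and a median of −0.31. The lowest moderated statistics were those of the mast cell genes Cpa3, a protease gene (difference −0.68, limma adjusted p = 0.482), and Fcer1a, a chain of the IgE receptor (−2.19, SE 0.70, adjusted p = 0.511), both without overlap. By size of the difference the platelet factor gene Pf4 (−1.57) and the monocyte receptor gene Csf1r (−1.13) followed Fcer1a. The highest statistics were those of Flt3, a cytokine receptor of lymphoid-primed progenitors (1.40, SE 0.45, adjusted p = 0.521), and Cdk6, a cell cycle kinase (0.16, adjusted p = 0.769), while Gfi1, a repressor gene of stem cells and neutrophils, had a larger difference than Cdk6 (0.49, adjusted p = 0.829). Fcer1a and Cpa3 also belong to the mast cell list, whose score sets MIG replicate 3 apart, and the part of those cells was not tested. The list was put together with earlier results of these data known.

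**Figure D5:**
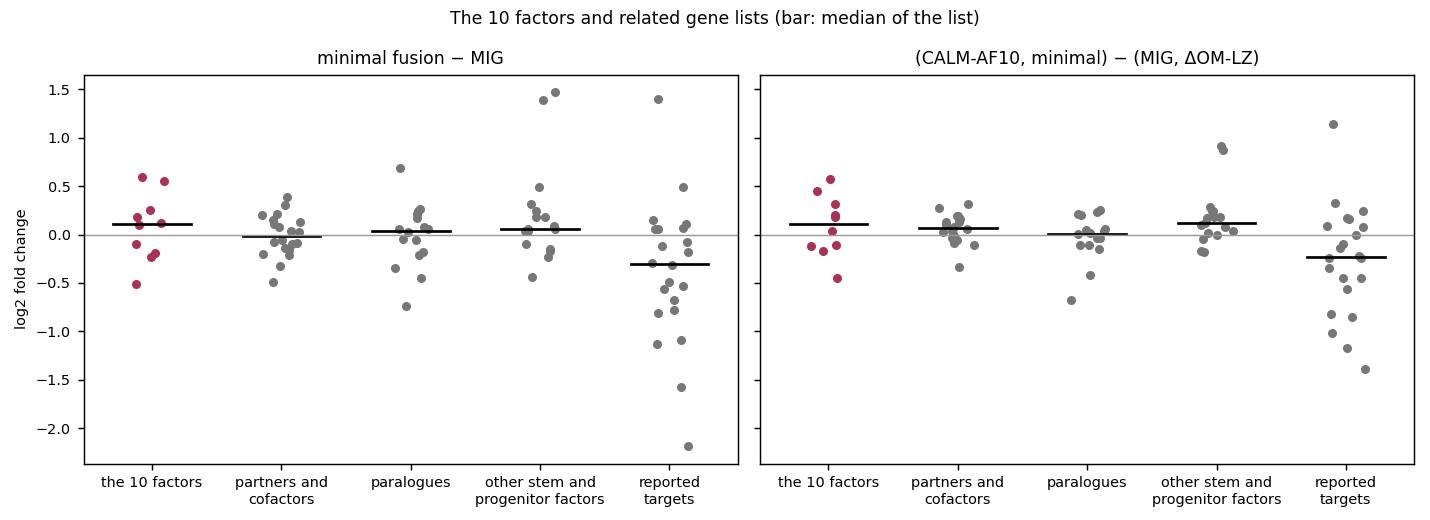
Log2 fold change (vertical axis) of the 10 factors and of the genes of 4 related lists, in the minimal fusion against MIG (left) and in CALM-AF10 and the minimal fusion against MIG and ΔOM-LZ (right); each point is a gene and the bar is the list's median. The medians on the left are 0.11, −0.02, 0.04, 0.06 and −0.31 from left to right.

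For each factor the 3 genes most like it over the 12 arrays were found by Pearson r, among 19938 genes less the factors themselves. The r ranks genes and carries no test, and the 3 arrays of high mast cell score weigh in each. Nearest to Gata2 were Tmem104, Cd55b and Ndst2, an enzyme gene of heparin synthesis in mast cells (r = 0.986 to 0.967), and nearest to Tal1 were Pxdc1, the lipid phosphatase gene Inpp5d and Lgr4 (0.959 to 0.952). Mycn had Angpt1, a ligand gene of the angiopoietin receptor, Akap13 and Zfp2 (0.957 to 0.935), and Runx1 had Parp3, Wdtc1 and the erythroid factor gene Klf1 (0.917 to 0.891). Klf1 and Angpt1 are also on the target list.

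Lmo2 was most alike with the homeobox gene Gbx2, Zc3hav1l and the methionine synthase gene Mtr (r = 0.936 to 0.894), and Sox4 with Rnf144a, 1190007I07Rik and Ctxn1 (0.911 to 0.887). Erg had Tet1, a DNA demethylation enzyme gene, the mitochondrial deacetylase gene Sirt3 and Muc13 (0.94 to 0.935), and Fli1 had Fgl2, Atp13a3 and the adhesion gene Vcl (0.961 to 0.922). Myb had Serpinf1, Luc7l and Sh3pxd2a (0.976 to 0.913). Lyl1 had Gpr152, Bmp3 and the signalling adaptor gene Card9 (0.956 to 0.931). No gene was among the 3 nearest of more than 1 factor.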

How the data were processed

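The deposited file gave 1 log2 intensity for each probe set on each array. Per the submitters' processing notes the authors used Affymetrix Expression Console; the sources used here give neither its version nor its summarization or normalization. The scale was inferred from the range of the values, and nothing was renormalized. A platform annotation table named 23410 of 35556 probe sets, 21789 with 1 symbol. The tests used lmFit and eBayes of limma 3.58.1, run under R 4.3.3, two-sided, with 8 residual degrees of freedom and no replicate block. The number of arrays limits the precision. The fit was tested on simulated data. Same-numbered arrays of CALM-AF10 and ΔOM-LZ deviated together from their group means (r = 0.63 to 0.79). Their replicates 1, both of high mast cell score, had r = 0.72. Minimal fusion replicate 1 had r = 0.64 with CALM-AF10 and 0.59 with ΔOM-LZ. For its replicate 2 these were 0.36 and 0.17, and for replicate 3 −0.27 and −0.18. MIG replicate 1 ran opposite to the replicates 1 of the other constructs (−0.55 to −0.42). The pairing comes from the data, not the labels. The genes, lists and tests were chosen with earlier results of these data known. Named were the 10 factors, the 3 genes most like each, and from each related list the 2 highest and 2 lowest moderated statistics in the minimal fusion against MIG, with any list member past the threshold. Cd34, Kit, Cd27, Pf4, Csf1r, Gfi1 and the endothelial genes were named after their values were seen. Alternatives are listed in the closing section.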

Additional observations from a re-analysis of the deposited data

How the results depend on the processing

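In each of the 8 tests (7 comparisons and the F test) 0 of the 10 factors passed under every alternative that could be run: quantile normalization, median centring, removal of dim probe sets, trend and robust variance, the mean of a gene's probe sets, all probe sets of the file, the compared groups alone, and the fit without the 3 arrays of highest mast cell score, the last chosen after seeing the data. Leaving out each array in turn gave 0 to 0 calls. With a replicate block the count was 0 in every comparison, also in paired fits of the compared groups alone, where Sox4 in CALM-AF10 against ΔOM-LZ had a limma adjusted p of 0.234. The smallest adjusted p of any factor under any alternative was 0.152, for Lmo2 in CALM-AF10 and the minimal fusion against MIG and ΔOM-LZ without MIG replicate 1. Of 70 differences 46 kept their sign under every alternative and 24 did not, the largest of these being 0.27 in size (Gata2, CALM-AF10 against MIG). Several alternatives could not change a sign, since each factor has 1 probe set and the groups are equal in size. These are removal of dim probe sets, trend and robust variance, the mean of probe sets, all probe sets, the compared groups alone and the replicate blocks. Leaving out an array of a group not compared could not either. Of the 40 marker relations 12 passed over all arrays, 8 after quantile normalization and 4 without the 2 arrays farthest from the median score, where fewer arrays enter; the 4 are Gata2 with the mast cell score and Gata2, Myb and Runx1 with the megakaryocyte score. With 3 arrays a group, some intervals do not exclude a 2-fold difference. In the minimal fusion against MIG these were −0.83 to 1.19 for Mycn and −1.35 to 0.32 for Gata2. The intervals of the other factors excluded it there, such as 0.19 to 0.92 for Sox4 and −0.11 to 0.35 for Myb. For Lmo2 in the minimal fusion against ΔOM-LZ, the interval of 0.38 to 1.03 did not exclude it.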
